A study of Mus musculus with 12 samples.

Results

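Immediate early genes are transcribed within minutes of a stimulus, without new protein synthesis. The 9 genes described here are the AP-1 genes Fos, Fosb, Jun, Junb and Jund, the zinc finger gene Egr1, the bZIP gene Atf3, and Ier2 and Ier3. They were chosen by symbol, with their levels in the 4 groups and on each array already known, out of 18193 genes that had a probe set of their own on the array. Their levels and differences are therefore given as a description, without a test. Together they had 11 probe sets, since Jun and Jund each had 2.

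Expression was read on 12 Affymetrix arrays of mouse germ cells and of in vitro cells named after them, 3 for each of 4 groups. Primordial germ cells (PGC), the embryonic precursors of sperm, came from the genital ridge of male BDF1 fetuses at E12.5, and round spermatids (RS), haploid cells that follow meiosis, from BDF1 testis at 3 weeks. PGC-like cells (PGCLC) were taken at day 6 of differentiation in culture, and spermatid-like cells (SLC) were also made in vitro. Cells of the 4 groups were sorted by FACS, at room temperature, before lysis in TRIZOL, and the sort gate, the starting cell line and any co-cultured cells are not given in the sources used here. The labels call the arrays biological replicates without saying whether they came from separate animals or cultures, so p values measure only the spread between these samples.

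AP-1 is a dimer of bZIP proteins. Jun proteins pair with themselves or with Fos proteins, while Fos proteins need a partner, and the dimers bind a short palindromic DNA site. Serum, growth factors, cytokines, ultraviolet light and mechanical or enzymatic handling of cells are known inducers, through MAP kinases that act on serum response factor with its ternary complex partners and on CREB and ATF factors. In germ cells Jund is known for a role in spermatogenesis, which is impaired in males without it.

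Of the 9 genes, 8 were higher on all 3 PGCLC arrays than on all 3 PGC arrays, each by at least 2-fold in mean log2 signal. Over all 14197 genes tested that share was 9.91%. The same 8 genes were higher by at least 2-fold on all SLC arrays than on all RS arrays, against 23.5% of all genes. These shares cannot be read as a result about the 9 genes, which were chosen from these values. The median difference over the 9 genes was 2.22 on the log2 scale for PGCLC minus PGC and 4.23 for SLC minus RS, beside 0.0062 and -0.15 over all genes. Jund was the exception in both, with overlapping arrays. Every gene lay above the filter level of 92.0 intensity units on all PGC, PGCLC and SLC arrays, so none entered through a single high group.

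**Figure D1:**
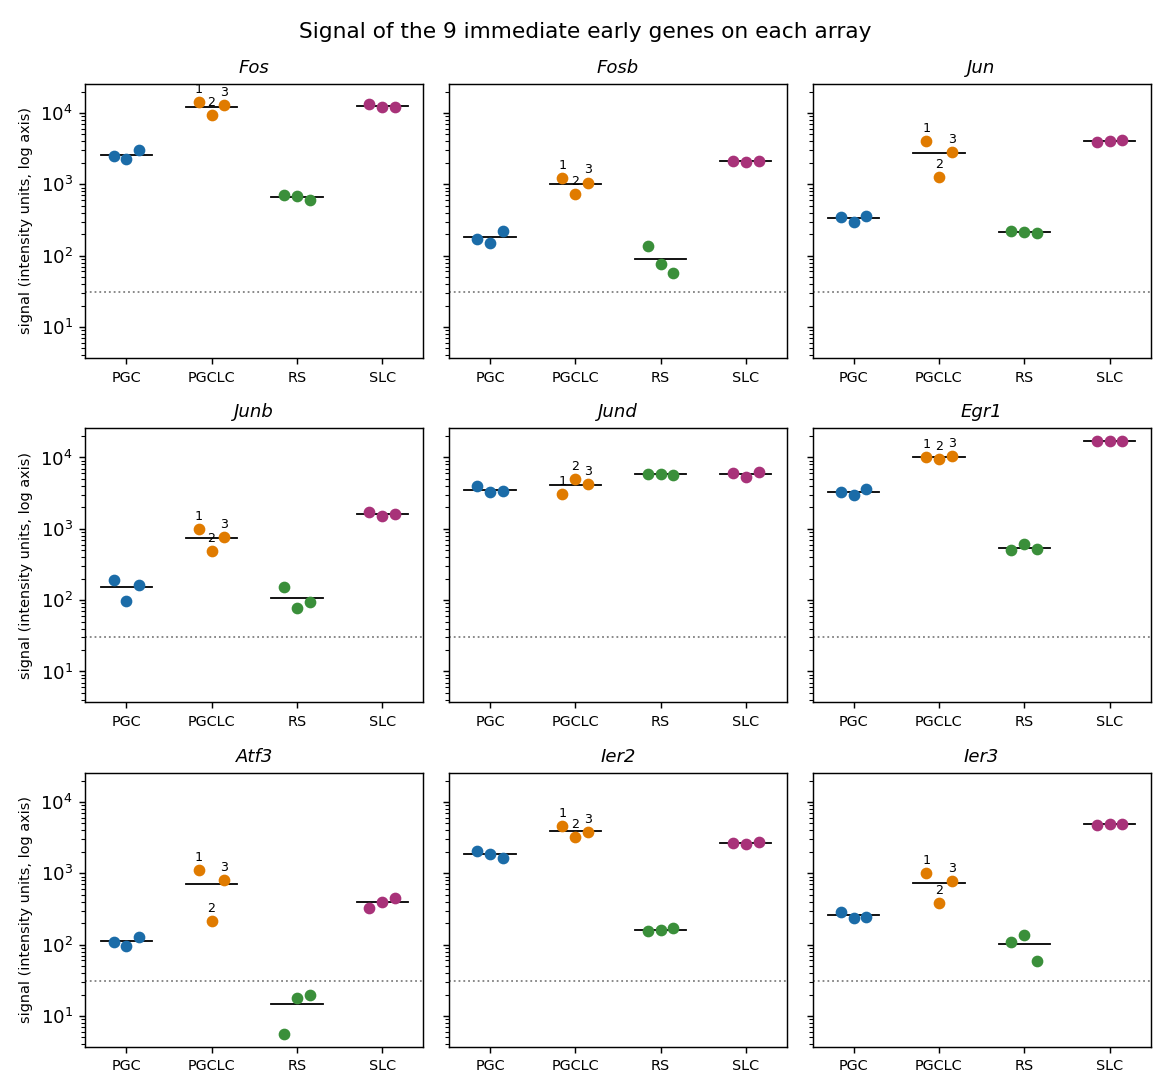
Signal of the 9 genes on each of the 12 arrays, in intensity units on a log axis, with 1 panel per gene. Points are arrays, horizontal bars are group means, numbers mark PGCLC replicates and the dotted line is the floor of 30.7 units. In every panel except that of Jund the PGCLC arrays lie above the PGC arrays and the SLC arrays above the RS arrays.

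The stretch from 250 bases before to 50 bases after the transcription start was available from RefSeq (GRCm38.p6) for 7 of the 9 genes. It is shown for 4 genes that were higher together and for Jund, which was not, with the letters 5′ to 3′ on the gene's strand. Capitals mark the CRE core TGACG, the sequence TGACATCA known from the Jun promoter, the ATF site TTACGTCA and the TATA motif TATAAA, on either strand.
Fos (chr12:85473640-85473939, plus strand): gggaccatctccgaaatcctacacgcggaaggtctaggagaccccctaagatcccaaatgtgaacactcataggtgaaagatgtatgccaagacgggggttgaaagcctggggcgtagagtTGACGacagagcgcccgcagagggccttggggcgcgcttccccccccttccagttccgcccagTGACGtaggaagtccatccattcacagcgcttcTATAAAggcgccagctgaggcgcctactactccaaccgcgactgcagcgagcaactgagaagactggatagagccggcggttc
Jun (chr4:95052173-95052472, minus strand): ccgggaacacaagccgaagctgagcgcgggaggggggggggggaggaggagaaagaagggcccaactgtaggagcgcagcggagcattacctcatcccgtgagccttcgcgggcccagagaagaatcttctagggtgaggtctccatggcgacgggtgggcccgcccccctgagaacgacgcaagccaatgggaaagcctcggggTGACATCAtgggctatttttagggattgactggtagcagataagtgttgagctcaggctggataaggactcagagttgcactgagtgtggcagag
Junb (chr8:84978699-84978998, minus strand): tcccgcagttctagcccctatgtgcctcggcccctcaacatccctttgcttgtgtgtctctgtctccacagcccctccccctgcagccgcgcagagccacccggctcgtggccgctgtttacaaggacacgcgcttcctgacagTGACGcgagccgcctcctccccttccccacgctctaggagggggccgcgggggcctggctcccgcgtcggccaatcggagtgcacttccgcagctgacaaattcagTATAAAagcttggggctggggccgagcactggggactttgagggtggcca
Atf3 (chr1:191183284-191183583, minus strand): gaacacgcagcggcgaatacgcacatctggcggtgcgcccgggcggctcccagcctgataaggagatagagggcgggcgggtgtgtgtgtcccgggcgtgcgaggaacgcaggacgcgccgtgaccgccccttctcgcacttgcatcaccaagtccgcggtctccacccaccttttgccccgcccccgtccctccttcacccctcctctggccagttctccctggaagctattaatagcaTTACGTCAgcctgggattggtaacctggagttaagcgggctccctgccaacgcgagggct
Jund (chr8:70697489-70697788, plus strand): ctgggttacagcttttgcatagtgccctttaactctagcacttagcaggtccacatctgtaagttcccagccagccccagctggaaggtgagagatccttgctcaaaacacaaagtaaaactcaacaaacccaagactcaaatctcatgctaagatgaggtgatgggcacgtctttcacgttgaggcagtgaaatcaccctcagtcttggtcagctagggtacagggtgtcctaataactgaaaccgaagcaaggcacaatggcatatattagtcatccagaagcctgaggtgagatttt
The CRE core, which is part of sites for CREB and ATF factors, was found in 4 of the 7 windows, those of Fos, Fosb, Junb and Atf3, and in 20.8% of 32851 such windows genome-wide. The Fos window held it at window bases 122 to 126 and 185 to 189, the second followed by TATAAA at bases 218 to 223. In the Jun window TGACATCA stood at bases 206 to 213, a sequence present in 3.62% of all windows. The ATF site of the Atf3 window, at bases 241 to 248, was present in 0.50% of all windows and contains the CRE core. TATAAA was found in the windows of Fos and Junb and in 13.6% of all windows. GGGCGG, the core of Sp1 sites, was found in 5 of the 7 (35.7% of all windows), and the Egr sequence GCGNGGGCG only in the Fosb window (5.55%), where it overlaps a GGGCGG. The canonical AP-1 site TGANTCA (7.81%), the full CRE TGACGTCA (1.79%) and the CArG box (1.63%) were found in none of the 7, which says only that these letters are not in these windows. The Jund window held none of these sequences and had 46.7% G and C, beside 54.0% to 68.3% in the other 6. Only 1 window per gene was searched. Whether these starts are used in the cells, and any link of the sequences to the levels, was not tested. TGACATCA and TTACGTCA were searched after the windows had been read.

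Fos encodes the AP-1 subunit that gave the family its name. Array values are given in the order of replicates 1, 2 and 3, in intensity units. On the PGC arrays Fos was at 2482, 2232 and 3026, and on the PGCLC arrays at 14128, 9343 and 12741. The lowest PGCLC array lay about 3-fold above the highest PGC array, and the PGCLC mean was 4.65-fold higher (log2 2.22, SE 0.22). The SE of these differences comes from the SDs of the 2 groups compared. On the RS arrays Fos was at 716, 686 and 601 and on the SLC arrays at 13361, 12025 and 12058. The SLC mean was 18.7-fold above that of RS (log2 4.23, SE 0.091). The PGCLC and SLC arrays overlapped, so the larger SLC difference went with a lower level in RS, 3.84-fold under PGC.

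Fosb, a close relative of Fos with an alternatively spliced short form, was at 173, 151 and 219 on the PGC arrays and at 1240.2, 736 and 1060.2 on the PGCLC arrays. No array overlapped, and the PGCLC mean was 5.52-fold higher (log2 2.46, SE 0.27). RS arrays had 135, 76.9 and 58.0, and SLC arrays 2152, 2088 and 2145. The SLC mean was 25.2-fold higher (log2 4.66, SE 0.36), and here every SLC array also lay above every PGCLC array.

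Jun encodes the AP-1 subunit that can bind DNA as a homodimer and that is activated by JNK kinases. It was at 352, 301 and 357 on the PGC arrays and at 4090.1, 1264 and 2809 on the PGCLC arrays. All PGCLC arrays were higher, but replicate 2 much less so than replicate 1, and the mean was 7.27-fold higher (log2 2.86, SE 0.51), the largest PGCLC difference among the 9 genes on the authors' scaling. RS arrays had 220.4, 215 and 205 and SLC arrays 3973, 4088 and 4117. Those groups were far apart, at 19.0-fold (log2 4.25, SE 0.035). The other Jun probe set gave the same directions, with 220.3 ± 27.9 (SD, n = 3) in PGC, 1066 ± 458 in PGCLC, 86.9 ± 18.8 in RS and 1618 ± 113 in SLC. Its differences were 4.51-fold and 18.9-fold, and its SLC and PGCLC arrays did not overlap.

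Junb encodes a Jun protein that is a weaker activator than Jun and can oppose it. Its PGC arrays had 195, 96.3 and 165 units and its PGCLC arrays 986, 487 and 770.0. PGCLC lay above PGC without overlap, by 4.93-fold (log2 2.30, SE 0.43). RS arrays had 151, 77.8 and 94.2 and SLC arrays 1735, 1531 and 1609. The SLC mean was 15.7-fold higher (log2 3.97, SE 0.29), while PGC and RS arrays overlapped.

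Jund, the Jun family gene that is known to be expressed broadly and without a stimulus, went another way. It was at 3996, 3310.3 and 3367 on the PGC arrays and at 3049, 5005 and 4289 on the PGCLC arrays, which overlapped (log2 0.19, SE 0.23). RS arrays had 5859, 5795 and 5736 and SLC arrays 6026, 5265 and 6220.0, which overlapped as well (log2 0.0063, SE 0.074). Its RS arrays lay above all PGC arrays by 1.64-fold and its SLC arrays above all PGCLC arrays by 1.44-fold. Over all genes 38.8% and 37.7% were separate in these directions, so this is no particular trait of Jund. The sign of its in vitro differences depended on the scaling, at -0.12 and -0.25 with arrays centred on their medians and 0.29 and 0.31 after quantile normalization. Its differences between stages were not computed with these scalings. The other Jund probe set stayed under the filter level on all 12 arrays, at 8.91 to 86.5 units, and bears on none of this.

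Egr1 encodes a zinc finger factor that is a standard readout of ERK signalling. On the PGC arrays it was at 3302, 2966 and 3609, and on the PGCLC arrays at 10112, 9509 and 10391. The 3 PGCLC arrays were close together and all about 3-fold above PGC (3.05-fold, log2 1.61, SE 0.090). RS arrays had 497, 605 and 515 and SLC arrays 17147, 17052 and 17256. The SLC mean was 31.9-fold above RS (SE 0.087 on the log2 scale), and the 4 groups did not overlap at any step of the order SLC, PGCLC, PGC, RS.

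Atf3 encodes a stress-induced bZIP protein that can repress transcription and that pairs with Jun proteins. It was at 109, 97.3 and 127 on the PGC arrays and at 1107, 214 and 815 on the PGCLC arrays. PGCLC lay above PGC by 5.23-fold (log2 2.39, SE 0.74), the widest error among the 9 genes, with replicate 2 at 1.94-fold and replicate 1 at 10.03-fold the PGC mean. Without replicate 2 the log2 difference was 3.10. RS arrays had 5.52, 18.0 and 19.9 units, all under the floor of 30.7 at which low values were set, and SLC arrays 322, 401 and 451. The SLC level was therefore at least 12.6-fold that of RS.

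Ier2 and Ier3 are immediate early genes outside the AP-1 family, Ier2 coding for a nuclear protein and Ier3 for a regulator of cell survival. Ier2 was at 2036, 1889 and 1659 on the PGC arrays and at 4585, 3220.4 and 3849 on the PGCLC arrays. This 2.07-fold difference (log2 1.05, SE 0.17) was the smallest among the 8 genes, and it fell under 2-fold without PGCLC replicate 1 (log2 0.92), without PGC replicate 3 (0.97) and with median centring (0.75). RS arrays had 155, 160.0 and 172 and SLC arrays 2686, 2574 and 2714, 16.4-fold higher (log2 4.03, SE 0.052). All SLC arrays lay below all PGCLC arrays, so Ier2 had its highest level in PGCLC.

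Ier3 had the most unequal differences at the 2 stages. Its PGC arrays had 285, 238 and 246 units and its PGCLC arrays 1011, 382 and 792, 2.63-fold higher (log2 1.40, SE 0.43). RS arrays had 109.6, 135 and 58.4 and SLC arrays 4815, 4982 and 4902, 51.4-fold higher (log2 5.68, SE 0.36). SLC arrays lay 7.27-fold above PGCLC arrays, without overlap.

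**Figure D2:**
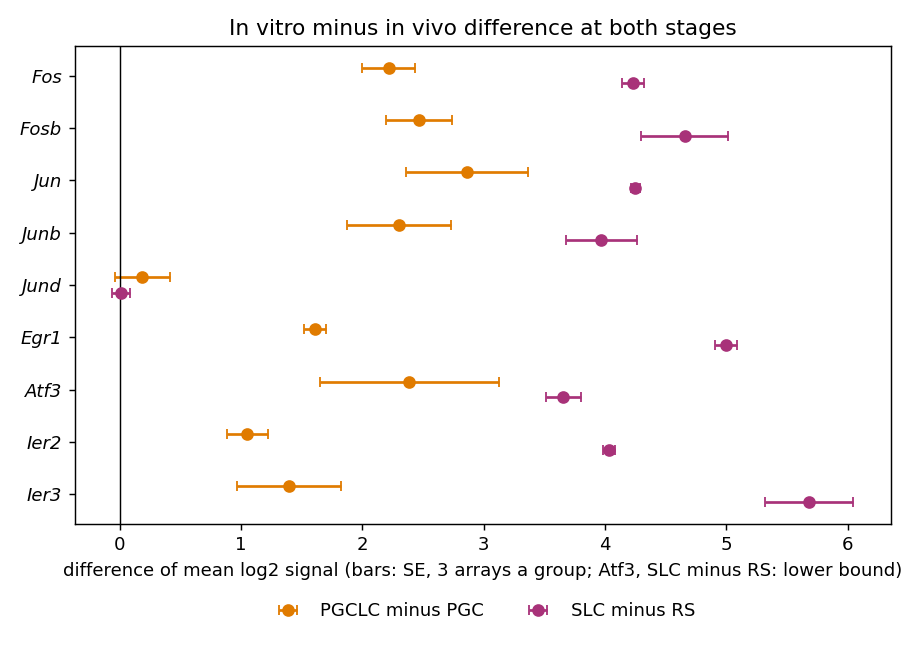
Difference of mean log2 signal between in vitro and in vivo cells for the 9 genes, at the germ cell stage (PGCLC minus PGC) and the spermatid stage (SLC minus RS), with SE from 3 arrays a group. Differences of SLC from RS reach 3.66 to 5.68 and those of PGCLC from PGC 1.05 to 2.86 for 8 genes, while Jund lies near 0 in both; the Atf3 value for SLC minus RS is a lower bound.

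The order of group means was SLC, PGCLC, PGC, RS for Fos, Fosb, Jun, Junb, Egr1 and Ier3, and PGCLC, SLC, PGC, RS for Atf3 and Ier2. Neighbours in this order overlapped for SLC and PGCLC in Fos, Jun and Atf3 and for PGC and RS in Junb. All other neighbours of these 8 genes were separate. In vivo, 7 of the 9 genes were lower on all RS arrays than on all PGC arrays, where 46.4% of all genes were, and Jund was higher, as were 38.8% of all genes. Among the 7, the differences included 11.4-fold for Ier2, 6.11-fold for Egr1, 3.84-fold for Fos and 1.57-fold for Jun. Between the in vitro groups 5 genes were higher on all SLC arrays than on all PGCLC arrays (37.7% of all genes) and Ier2 was lower (38.3%). Arrays that did not overlap were thus common over all genes in both of these comparisons. Compared with the in vivo cells of its stage, each of the 8 genes differed more in SLC than in PGCLC, which for Ier2 went with RS values near 160 units and not with a higher SLC level.

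Within PGCLC the 3 arrays were unlike. The median log2 signal of the 9 genes was 11.57, 10.30 and 11.46 on replicates 1, 2 and 3, beside 8.23 to 8.48 in PGC, 7.27 to 7.43 in RS and 11.96 to 12.01 in SLC. Replicate 1 was highest, replicate 3 next and replicate 2 lowest for 7 of the 9 genes, an order that 32.1% of all genes tested had. Replicate 1 exceeded replicate 2 by 5.18-fold for Atf3, 3.24-fold for Jun and 2.65-fold for Ier3, but by 1.06-fold for Egr1, 1.42-fold for Ier2 and 1.51-fold for Fos. Jund ran the opposite way, 1.64-fold lower on replicate 1 than on replicate 2. Replicate 2 still lay above all PGC arrays for all 9 genes, by 1.49-fold (Ier3) to 4.11-fold (Fosb) over the PGC mean among the 8 genes that were higher as a group. Without replicate 2 the median difference of the 9 genes from PGC was 2.39, and without replicate 1 it was 1.92.

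**Figure D3:**
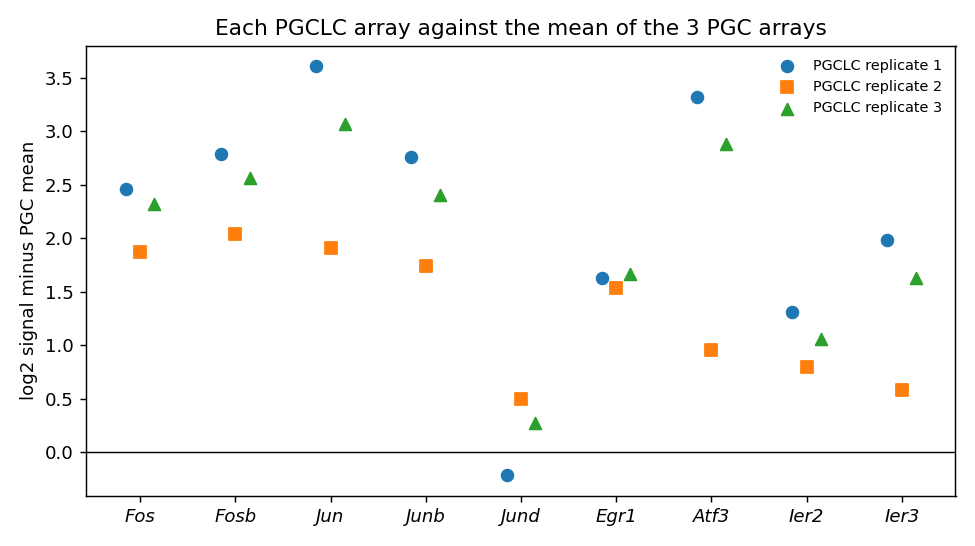
Log2 signal of each PGCLC array minus the mean of the 3 PGC arrays, for the 9 genes, with 1 marker shape per replicate. Replicate 2 (squares) is lowest for 8 genes, most clearly for Atf3 and Jun, and the 3 arrays nearly coincide for Egr1.

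Markers of other cell types also differed among the PGCLC arrays, some lists in the order of the 9 genes and others in the reverse order. The epithelial, macrophage and testis somatic sums were highest on replicate 1 and lowest on replicate 2, while the germ cell, fetal gonad somatic and endothelial and blood sums were highest on replicate 2 and lowest on replicate 1. The summed signal of 7 epithelial and ectodermal markers was 58393, 18795 and 46285 units on PGCLC replicates 1, 2 and 3, beside 15574 to 16132 in PGC, and 5 of them rose in PGCLC (Cldn4, Krt8, Krt18, Krt19 and Zic1). Zic1 was at the floor on all PGC arrays. Cldn4 and Zic1 passed the filter only through the PGCLC arrays, though they count in the 5. The direction of their change was thus fixed by the filter. Over all genes tested, 10.3% were called higher in PGCLC minus PGC, the share to set beside the marker counts here. Germ cell markers, 12 genes, summed to 45472, 77367 and 64040 beside 83357 to 86965. Of these 12, 1 was called higher (Nanog) and 1 lower (Mael). The brightest in PGC, Dppa3 and Dazl, had means of 21481 and 20008 in PGC and 11404 and 10003 in PGCLC. Nanog, Sox2 and Tfap2c had higher means in PGCLC than in PGC, and the rest lower ones. Fetal gonad somatic markers, 12 genes, summed to 5183, 13312 and 8164 beside 4735 to 5774, with 4 of the 12 called higher in PGCLC (Amhr2, Cyp26b1, Fst and Dlk1). Of 6 macrophage markers 4 rose, with sums of 2057, 683 and 1482 beside 296 to 328. Of 11 testis somatic markers 4 rose, with sums of 14644, 11339 and 13064 beside 4462 to 5046. The 5 endothelial and blood markers, mostly Hbb-y, summed to 2425, 17020 and 9517 beside 13445 to 14473. The part of these cells in the differences of the 9 genes was not tested. In bulk RNA, fewer cells of a type and less RNA per cell cannot be told apart.

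Markers also differed between SLC and RS, a comparison in which 23.5% of all genes tested were called higher. Of 11 testis somatic markers 10 rose in SLC, and their summed signal was 47196 to 48170 units beside 2519 to 3088 in RS, where Cyp11a1, a steroid synthesis gene of Leydig cells, was at the floor on all arrays. Of 12 fetal gonad somatic markers 9 rose, with sums of 28269 to 30085 beside 1468 to 1697. The 12 round spermatid markers were bright in both, at 225310 to 240090 units in RS and 167100 to 169780 in SLC, against 794 to 1068 in PGC and PGCLC. Macrophage sums were 10247 to 10865 in SLC and 13697 to 15085 in RS, nearly all from Aif1 (9158 ± 155 and 13606 ± 685). Of the 6 macrophage markers 2 rose in SLC, Lyz2 from 113 ± 63.0 to 440 ± 89.2 and Cd14 from 150 ± 11.9 to 420 ± 64.5. The 7 epithelial markers summed to 2814 to 2938 in RS and 1598 to 1785 in SLC, with Zic1 in RS and Krt19 in SLC at the floor on every array. The 5 endothelial and blood markers summed to 379 to 538 and 453 to 557, with Hbb-y, an embryonic globin gene, at the floor in both. The part of somatic cells in the SLC levels of the 9 genes was not tested.

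The genes whose pattern over the 12 arrays was most like the mean of the 9 were named by their Pearson r with it. They were Ccnd2 (r = 0.998), a G1 cyclin gene, Kdelr2 (0.998), Flna (0.996), an actin cross-linker gene, Id1 (0.996), an inhibitor of bHLH factors, Akap2 (0.996), Sfxn3 (0.996), Ccn1 (0.995), Tpm4 (0.994), Klf6 (0.994) and Cald1 (0.994). Ccn1 and Klf6 are immediate early genes themselves. Ccn1 was at 595 ± 117 in PGC, 3290 ± 1051 in PGCLC, 107 ± 13.3 in RS and 7141 ± 206 in SLC. Cald1, an actin- and myosin-binding protein gene of contractile cells, was at 1079 ± 54.3, 5600.4 ± 2024, 168 ± 9.61 and 12325 ± 518 in the same order. The 12 arrays form 4 groups, so these r mostly compare 4 levels, and no p is given.

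Other genes of the pathway were tested in limma across all genes, in 6 lists that leave out the 9 genes. The lists were chosen with earlier results of these data known. Their shares, in each comparison below, are therefore a description and not independent support. In PGCLC minus PGC, 38 of 96 tested genes rose, 39.6%, against 10.3% of all genes tested, and 0 were called lower by limma, against 1.6% (8 were lower at an unadjusted p under 0.05). A call needed an adjusted p under 0.05 and a 2-fold change, in a fit that shares 1 variance per gene over the 4 groups. With the variance taken from these 6 arrays alone, 5 of these 38 remained called, Ccn1, Nr4a1, Egr2, Klf6 and Fosl2, beside 175 of all genes. By list the rises were 16 of 26 other immediate early genes and 12 of 18 AP-1 target genes, and 1 of 14 upstream kinases. In the 6-array fit these counts were 4, 0 and 0.

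Among AP-1 partner genes 3 of 9 tested rose (33.3%, beside 10.3% of all genes), and the list median was 0.11 beside 0.0062 for all genes. Fosl2, a Fos family gene, had PGC arrays at 99.0 ± 10.6 and PGCLC arrays at 597 ± 28.7 (6.05-fold, log2 2.60, SE 0.14, limma adjusted p = 8.67e-06), with 567 units on replicate 2 beside 601 and 624 on the other two. Its other probe set gave a log2 difference of 0.83, under 2-fold, and the mean of its probe sets 1.71. Jdp2, which encodes a repressive partner of Jun, rose 6.33-fold to 410 ± 236 (adjusted p = 0.00252 in limma, and 0.068 in the 6-array fit). Fosl1 was under the floor on average in both groups, and Batf and Batf2 were under the filter.

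Bhlhe40, a circadian and stress-responsive repressor gene, rose 13.4-fold among the other immediate early genes, from 89.9 ± 47.6 to 1592 ± 1249.8 (limma adjusted p = 0.00346, and 0.0844 in the 6-array fit). On PGCLC replicates 1, 2 and 3 it was at 2773, 283 and 1719 units, and its log2 difference of 3.74 became 3.08 without replicate 1 and 4.73 without replicate 2. Egr3, a relative of Egr1, rose 7.61-fold, from 55.1 ± 18.1 to 456 ± 236 (adjusted p = 0.000837 in limma and 0.0583 in the 6-array fit), although its other probe set gave a log2 difference of 0.20. Of 16 feedback genes 4 rose. Socs3, an inhibitor of cytokine signalling, rose 32.4-fold to 2973 ± 1846 and Zfp36, which destabilizes AU-rich mRNAs, 3.94-fold to 1534 ± 698, with limma adjusted p of 0.000402 and 0.00128 and 0.0506 and 0.0659 in the 6-array fit. The log2 difference of Socs3 was 5.02, against 5.76 without PGCLC replicate 2 and 4.07 for the mean of its probe sets. Dusp1, an immediate early MAP kinase phosphatase gene, was also called.

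Upstream of these genes, 2 of 13 factor genes tested rose (15.4%) and 1 of 14 kinase genes (7.1%). Both shares were near the 10.3% of all genes. The 2 factors were the ETS genes Elk3 (3.31-fold, adjusted p = 0.0104 in limma) and Ets2 (2.75-fold, 0.0129). In the 6-array fit their adjusted p were 0.0664 and 0.0992, and Ets2 was also lost without PGCLC replicate 3 (0.0575). The single kinase gene that rose was Mapk10, the JNK gene known from neurons, from the floor on all PGC arrays to 782, 62.6 and 613 units on PGCLC replicates 1, 2 and 3 (log2 3.34, adjusted p = 0.00746 in limma, 0.105 in the 6-array fit). Its level was higher in RS and SLC, at 2250 ± 374 and 1157 ± 229. The size of the Mapk10 rise was uncertain, with a log2 difference of 2.28 by its other probe set and 4.49 without PGCLC replicate 2. The probe set that stood for a gene was picked anew when an array was left out. Without PGCLC replicate 1 or 3 the other Mapk10 probe set was picked, at 1.86 and 2.07. These 2 values thus mix a change of probe set with the loss of an array. Leaving out RS replicate 2 or 3 or SLC replicate 2 gave 2.28 through the same change of probe set. The 12 AP-1 targets that rose were led by Mmp9, a matrix protease gene, at least 13.2-fold to 738 ± 537, and Cd44, a hyaluronan receptor gene, at least 12.3-fold to 558 ± 426. On PGCLC replicates 1, 2 and 3 Mmp9 was at 1241, 173 and 801 units and Cd44 at 944, 101 and 629, the same order as for Jun and Atf3. Without replicate 2 the log2 differences of Mmp9 and Cd44 were 4.56 and 4.60, beside 3.72 and 3.62 with all arrays, and that of Cd44 was 2.99 without replicate 1 and 2.78 for the mean of its probe sets. Their limma adjusted p were 0.00208 and 0.00306, and 0.068 and 0.0788 in the 6-array fit.

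In SLC minus RS, 65 of the 96 pathway genes rose, 67.7%, against 23.5% of all genes tested, and 0 were called lower by limma, against 3.32% (unadjusted p under 0.05 with a lower level was found for 3). With these 6 arrays alone all 65 were called again, and 1 gene was called lower. By list the rises were 17 of 18 AP-1 targets, 13 of 16 feedback genes, 19 of 26 other immediate early genes, 5 of 9 AP-1 partners, 7 of 13 upstream factors and 4 of 14 upstream kinases. The AP-1 targets Il6, Mmp3, Mmp13 and Plau passed the filter only through the SLC arrays. Their rise was thus fixed by the filter, though they count in the 17 and the 65. Without any 1 SLC array, 14 AP-1 targets were tested and 13 rose. With the deposited scaling 87.6% of all calls in this comparison were higher, against 53.7% with median centring and 54.8% after quantile normalization, and the median of all genes moved from -0.15 to -0.41 and -0.33. With these scalings 61 and 58 pathway genes rose and 3 and 0 fell, and the median difference of the 9 genes was 3.97 and 3.88. For PGCLC minus PGC the share of higher calls moved from 86.5% to 52.1% and 73.5%, and the median difference over all genes moved from 0.0062 to -0.30 and -0.052. There 31 and 36 pathway genes rose and 1 fell with each scaling.

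**Figure D4:**
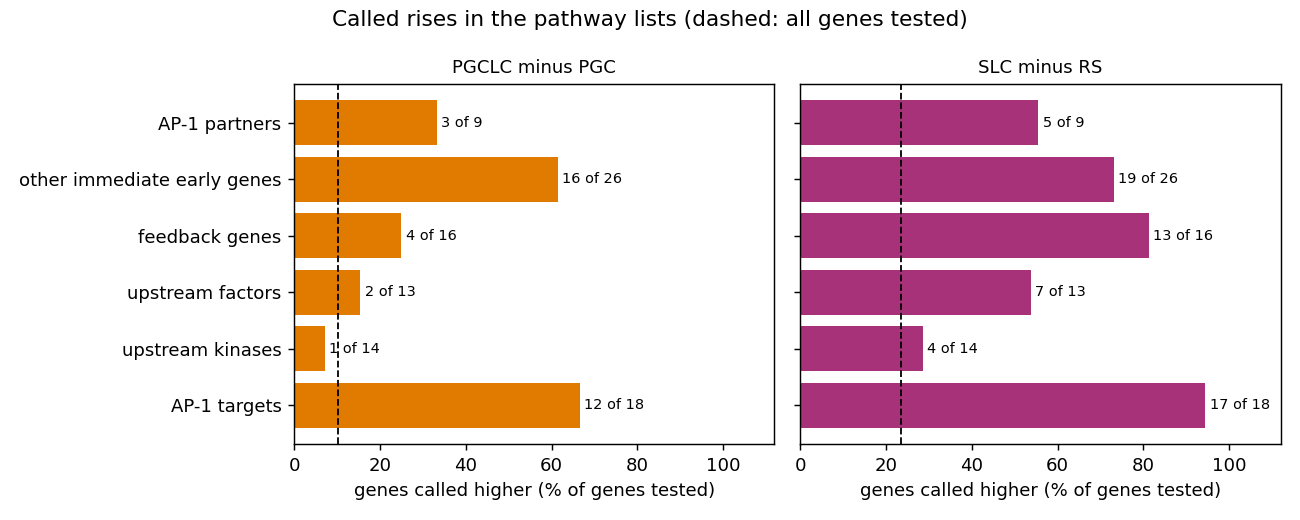
Share of tested genes called higher by limma in each of 6 pathway lists that leave out the 9 genes, for both comparisons, in percent of genes tested. Dashed lines mark the share over all genes, 10.3% and 23.5%; in both comparisons the AP-1 targets reach over 60% and the upstream kinases lie closest to the line.

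In SLC, Fosl2 reached 1639 ± 42.9, at least 53.3-fold above RS, whose arrays all lay at the floor (limma adjusted p = 5.66e-11). Its other probe set had the opposite sign (log2 -0.54), and the mean of its probe sets gave 2.60. Maff, a small Maf gene, rose at least 15.6-fold to 484 ± 63.1. Klf6 rose 87.2-fold by mean log2 and 83.0-fold by mean signals, from 44.6 ± 18.0 to 3706 ± 129 (adjusted p = 2.17e-08 in limma), with the same sign in all 5 of its probe sets, whose mean gave a log2 difference of 4.88 beside 6.45. Bhlhe40 reached 2111 ± 60.9, at least 68.6-fold above RS.

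Dusp6, the ERK phosphatase gene, was at 53.3 ± 5.97 in RS and 4657 ± 199 in SLC, an 87.7-fold rise (log2 6.45, SE 0.10, limma adjusted p = 3.96e-12). In PGC and PGCLC it was at 2190 ± 118 and 3226 ± 161, under 2-fold apart. Nab1, a corepressor of Egr proteins, rose 21.6-fold to 1601 ± 144. Upstream, Elk3 rose 19.9-fold, or 17.6-fold by mean signals, and Ets1 8.06-fold, the latter with this sign in 3 of 4 probe sets. With the mean of a gene's probe sets the log2 differences of Nab1, Elk3 and Ets1 were 3.80, 3.11 and 1.70, beside 4.43, 4.31 and 3.01. The kinase genes Map2k4 and Map2k1, which act above JNK and ERK, rose 6.07-fold to 338 ± 29.5 and 4.97-fold to 1550 ± 74.2, in both cases from lower RS levels (57.2 ± 15.6 and 313 ± 33.5) than those of PGC (1039 ± 45.6 and 2205 ± 200). The other Map2k4 probe set gave a log2 difference of 0.32 and the mean of its probe sets 1.46, beside 2.60.

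The AP-1 target list held the largest rise. Timp1, an inhibitor of matrix proteases, rose 136-fold by mean log2 and 126-fold by mean signals, from 115 ± 53.3 to 14507 ± 574 (limma adjusted p = 9.22e-08). Il6, a cytokine gene, rose at least 79.1-fold to 2650 ± 131, and lay at the floor on each PGC and PGCLC array. It passed the filter only through the SLC arrays, so the direction of its change was fixed by the filter. The single target that was not called was Mmp9, at 68.3 ± 23.3 in RS and 95.6 ± 5.81 in SLC (log2 0.55, limma adjusted p = 0.43).

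Whether the in vitro difference was unequal at the 2 stages was tested for the pathway genes as an interaction, the SLC minus RS difference less the PGCLC minus PGC difference. Of 96 genes, 49 had a larger and 4 a smaller difference at the spermatid stage in limma, beside 20.7% and 11.1% of all genes. The larger differences included 13 of 18 AP-1 targets, 11 of 26 other immediate early genes and 10 of 16 feedback genes. Among these targets were Il6, Mmp3, Mmp13 and Plau, which passed the filter only through the SLC arrays. The 4 smaller ones were Klf4, Arc, Mapk10 and Mmp9. Both differences enter this contrast, so it does not say which of the 4 groups sets it.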

How the data were processed

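Linear intensities, 1 per probe set, were deposited by the authors, and MAS5 is named in the submitters' processing notes without a version. The 2% trimmed mean was 500.0 on every array, so each had been scaled to a common level, and array medians were 73.2 to 107 units. Detection calls, scan dates and background settings are not given in the sources used here. The number of arrays limits the precision.

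Values under 30.7 units, the 25th percentile of the table, were set to it before taking log2. Probe sets with 1 gene symbol (34945 of 45101) were kept if above 92.0 units, the table median, on at least 3 arrays, and the probe set with the highest mean stood for a gene (14197 genes). All 12 arrays entered 1 limma fit (limma 3.58.1, R 4.3.3) with 4 group means, eBayes with an intensity trend and Benjamini-Hochberg adjustment over all genes. Folds are differences of mean log2 values, written "at least" if the lower group had an array at the floor, unless mean signals gave a smaller ratio.

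The 9 genes, the 6 pathway lists and the marker lists were chosen with earlier results of these data known. The genes named were the 9, the 2 largest called rises and falls with separate arrays in each list and comparison (the largest change where none was called), and the 10 genes most alike over the arrays. Others were named after their values were seen. On simulated data with 200 of 14197 genes moved, in 5 draws, the fit recovered 80.2% and 90.4% of log2 changes of 1.5 and 2 between PGCLC and PGC, beside 61.6 false calls on average, and 76.2% and 89.2% beside 15.4 false calls between SLC and RS. Log2 ratios of 3' to 5' control signals were -0.56 to 0.20 for Gapdh and 0.33 to 0.70 for Actb, with RS arrays highest for Gapdh. Replicate numbers did not pair arrays between groups.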

Additional observations from a re-analysis of the deposited data

Results flagged for a closer look

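For 15 pathway genes named above, the in vitro difference was unequal at the 2 stages, by the limma interaction of SLC minus RS less PGCLC minus PGC with an adjusted p under 0.05 and a size of at least 2-fold. The interaction was positive, a larger difference at the spermatid stage, for Il6 (log2 6.31), Dusp6 (5.90), Timp1 (5.17), Nab1 (3.98), Klf6 (3.79), Fosl2 (3.14), Ets1 (2.76), Cd44 (2.62), Elk3 (2.59), Map2k4 (2.48), Map2k1 (1.87), Ets2 (1.48) and Zfp36 (1.47). It was negative for Mapk10 (-4.30) and Mmp9 (-3.17). Values of Il6, Fosl2, Cd44 and Mapk10 include a group at the floor on at least 2 arrays, so their sizes are fitted values. Il6 also passed the filter only through the SLC arrays. The other Fosl2 probe set differed by log2 0.83 in PGCLC minus PGC and -0.54 in SLC minus RS, the reverse of a larger spermatid difference. The other Map2k4 probe set gave 0.32 for SLC minus RS. The interaction was not fitted for these other probe sets. The unlike PGCLC arrays enter each of these contrasts, and their part was not tested.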

How the results depend on the processing

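The PGCLC comparison depended on which arrays shared the variance. In the fit of only the 6 arrays compared, 175 of all genes and 5 pathway genes were called in PGCLC minus PGC, beside 1685 and 38. Leaving out 1 array at a time gave 985 (without PGCLC replicate 1) to 2813 (without PGCLC replicate 2) called genes and 32 to 44 called pathway genes, with 988 without PGCLC replicate 3. In SLC minus RS the same alternatives gave 3610 to 3902 called genes and 60 to 67 pathway genes. The median difference of the 9 genes ranged from 1.92 to 2.39 in PGCLC minus PGC and from 4.15 (without RS replicate 3) to 4.27 in SLC minus RS, and was 3.97 with median centring and 3.88 with quantile normalization in the latter. The number of pathway genes with unequal differences at the stages ranged from 46 to 60. The replicate number as a block called 1680 and 3805 genes and 39 and 65 pathway genes, and same-numbered arrays correlated at -0.0048 to 0.027 (PGCLC and PGC) and 0.0065 to 0.13 (SLC and RS) in their deviations, so the numbers were not taken as a pairing. No named gene or member with a difference of at least 2-fold changed sign under any alternative. The Atf3 bound for SLC minus RS was 4.76 with the floor at the 10th percentile and 2.08 with the floor at the table median. Bounds of other genes against the floor moved likewise: for SLC minus RS, Fosl2 was at log2 7.66 and 4.15, Bhlhe40 at 7.59 and 4.52, Il6 at 7.59 and 4.85 and Maff at 4.90 and 2.39 with these floors, and each stayed called.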

Other observations

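Some pathway genes were bright in both RS and SLC, though not always at the same level, and are picked out here with those values in view. Crem, whose testis form is a known activator of spermatid genes, was at 48.7 ± 22.5 units in PGC, 45.8 ± 45.1 in PGCLC, 8797 ± 896 in RS and 5212 ± 80.0 in SLC. Arc, known as an immediate early gene of neurons, was at 21.8 ± 22.3, 134 ± 109, 5223 ± 467 and 2551 ± 128 in the same order. Crem and Arc thus had lower means in SLC than in RS, and neither was called between them. Klf4 was at 661 ± 26.9, 3799 ± 1673, 8169 ± 288 and 7879.9 ± 115. It rose in PGCLC and was not called between SLC and RS. Myc, by contrast, was under the floor on average in RS (6.01 ± 3.47) and at 1493 ± 56.9 in SLC, beside 143 ± 22.5 in PGC.

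Srf, which encodes the serum response factor itself, was at 529 units in PGC, 449 in PGCLC, 1140 in RS and 705 in SLC on average, and was not called in either comparison. Among the matrix protease genes, Mmp3 and Mmp13 rose in SLC, to 827 ± 50.9 and 202 ± 11.8, and were not called between PGCLC and PGC, the reverse of Mmp9. Both had passed the filter only through the SLC arrays.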
